A study of Rattus norvegicus with 10 samples.

Results

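The miRNAs described here are miR-126, the microRNA of the vascular endothelium, and the clustered pair miR-221 and miR-222, which act in the same cells. They are all rows of the miRNA count tables whose names begin with rno-miR-126, rno-miR-221 or rno-miR-222, and there are 7 of them among 723 mature miRNAs. The 7 are rno-miR-126a-3p, rno-miR-126a-5p, rno-miR-126b, rno-miR-221-3p, rno-miR-221-5p, rno-miR-222-3p and rno-miR-222-5p, written here without the species prefix. Levels are in cpm, the reads of a miRNA per 1000000 reads of its library. The filter on low values asked for 1 cpm or more in 5 or more of the 10 libraries, and 5 members are among the 359 miRNAs that passed it and were tested, whereas miR-126b and miR-222-5p are not.

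All 10 small RNA libraries come from female Wistar rats with collagen-induced arthritis (CIA), raised by immunization with bovine type II collagen in Freund's adjuvant, and they form 5 groups of 2. CIA_B was sampled before any therapy. MS_E and MS_A were sampled at 1 h and 34 days in the arm with mechanical stimulation (the labels call this arm acupuncture). In it a thin needle was inserted and twirled at points of the lower back and leg. PLA_E and PLA_A were sampled at 1 h and 34 days in the placebo arm. The study's methods describe placebo as a peritoneal injection of sterile saline. Per the study, stimulation was repeated every other day and saline was given weekly, so the 34 day groups followed repeated treatment. Below, 1 h or 34 days of a therapy names the time of sampling, not the length of a session. Every rat was shaved, and healthy rats are not among these libraries, so the controls carry the disease as well. Tissue was taken at sacrifice, so the times are different animals, and whether the 2 libraries of a group are separate animals is not stated in the labels. The age of the animals is not given in the labels. The labels name muscle beneath the epidermis and the study's methods describe subcutaneous tissue around the stimulated points.

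As background, endothelial cells line every vessel, and miR-126 is among their most abundant and most restricted miRNAs. Its 3p arm represses SPRED1 and PIK3R2, which dampen the response to VEGF, and so favours vessel growth and integrity, while its 5p arm targets DLK1 and sustains endothelial proliferation. miR-221 and miR-222 repress KIT and the cell cycle inhibitor CDKN1B (p27); they restrain migration and vessel growth in endothelium but promote growth of vascular smooth muscle, so the pair is not restricted to the endothelium.

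The sequences below are shown because they decide which members can share targets and which can be told apart by their reads. They are the RefSeq mature sequences, 5′ to 3′, with the seed (bases 2 to 8, the stretch that pairs with target messages) in capitals. All 7 members were found there by their mature names.

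miR-126a-3p: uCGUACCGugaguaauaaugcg

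miR-126a-5p: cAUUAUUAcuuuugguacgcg

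miR-126b: uACCAAAAguaauaaugugcug

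miR-221-3p: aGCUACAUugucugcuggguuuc

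miR-222-3p: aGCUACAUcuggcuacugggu

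miR-221-5p: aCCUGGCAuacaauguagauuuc

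miR-222-5p: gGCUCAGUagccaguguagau

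miR-221-3p and miR-222-3p share the seed GCUACAU, and no other mature rat miRNA in the RefSeq table has it. The first 8 bases of the pair are identical, and 11 of 21 positions agree when they are aligned without gaps from the 5′ end, so the 3′ parts tell their reads apart. Each of the other 5 members has a seed that no other miRNA of the table carries. Thus the 2 arms of miR-126a, and either of them and the clustered pair, do not share a seed.

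In the GRCr8 assembly used by RefSeq (the authors aligned to rn4, whose coordinates are not used here), miR-126a-5p lies at chr3:29813182-29813202 and miR-126a-3p at chr3:29813219-29813240, both on the plus strand and inside the span of the protein-coding gene Egfl7, which encodes a factor secreted by endothelial cells. miR-126b lies on the minus strand at chr3:29813177-29813198, antisense to miR-126a-5p. RefSeq lists the 2 hairpins with the symbols Mir126a and Mir126b the other way round, so mature names are used throughout. The miR-222 hairpin is at chrX:6022621-6022723 and the miR-221 hairpin at chrX:6023182-6023290, both on the plus strand with 458 bases between them. The overlap of the antisense pair is 17 bases of exact reverse complement, in capitals here.

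miR-126a-5p: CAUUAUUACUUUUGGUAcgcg

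miR-126b: UACCAAAAGUAAUAAUGugcug

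The hairpins of the pair are shown with both mature arms in capitals, the 5p arm first, because the 2 arms differ widely in read count.

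miR-221: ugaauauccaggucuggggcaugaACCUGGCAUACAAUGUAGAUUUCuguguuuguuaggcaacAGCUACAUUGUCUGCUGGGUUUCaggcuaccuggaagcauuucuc

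miR-222: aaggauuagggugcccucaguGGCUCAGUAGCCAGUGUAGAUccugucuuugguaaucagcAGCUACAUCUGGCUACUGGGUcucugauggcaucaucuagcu

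The libraries hold 1513799 to 8926170 miRNA reads, and 3 counts, taken as the floor, stand for 2.60 cpm in the smallest (CIA_B replicate 1) and for 0.366 to 0.828 cpm in the other 9. Values are cpm scaled with the TMM factors of edgeR (0.675 to 1.41). The 4 skeletal muscle miRNAs of the marker list (miR-1-3p, miR-206-3p, miR-133a-3p and miR-133b-3p) had reads in all 10 libraries, with a summed level of 83910 to 268531 cpm. The marker lists used here held none for endothelium that is independent of the members, and mRNA was not analysed here. In each group 1 library held several times more miR-1-3p than its partner (80416 to 122986 cpm against 10117 to 15567 cpm), namely replicate 1 of CIA_B, PLA_E and PLA_A and replicate 2 of MS_E and MS_A; these 5 are called here the libraries with more miR-1-3p. MS_E replicate 1 stands apart in that 51.8% of its reads are miR-10b-5p.

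The miR-126a arms were abundant and the pair of miR-221 and miR-222 was scarce. By mean level over the 10 libraries miR-126a-5p ranked 16 of 359 tested miRNAs (9259 cpm) and miR-126a-3p ranked 31 (2185 cpm), against rank 128 for miR-221-3p (48.8 cpm), rank 176 for miR-222-3p (21.6 cpm) and rank 312 for miR-221-5p (2.75 cpm). Both miR-126a arms together took 0.310% (MS_E replicate 1) to 1.76% (PLA_A replicate 1) of the reads of a library. Between the highest and the lowest library the 4 more abundant members spanned 3.53-fold (miR-126a-5p) to 4.10-fold (miR-221-3p). In a bulk sample, fewer endothelial cells and less of a miRNA per cell cannot be told apart.

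miR-126a-3p, the arm that acts on the VEGF response, was at 2732 and 1455 cpm in the 2 CIA_B libraries. At 1 h it was at 773 and 2628 cpm in MS_E and at 2139 and 1791 cpm in PLA_E. At 34 days it was at 2360 and 2610 cpm in MS_A and at 3025 and 2336 cpm in PLA_A. Thus 9 libraries lay between 1455 and 3025 cpm and MS_E replicate 1 lay below all of them, while its partner was among the highest. The group means ordered as PLA_A (2680 ± 487 cpm, SD, n = 2), MS_A (2485 ± 177), CIA_B (2093 ± 902), PLA_E (1965 ± 246) and MS_E (1701 ± 1311). On the log2 scale these means spanned 0.66, less than the gap of 1.76 between the 2 MS_E libraries, and neighbours in the order overlap. With library size only, CIA_B (1817 cpm) came below MS_E (1916 cpm).

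miR-126a-5p, the more abundant arm, was at 11896 and 7039 cpm in CIA_B, at 3501 and 8285 cpm in MS_E, and at 7782 and 10360 cpm in PLA_E. At 34 days it was at 12360 and 8753 cpm in MS_A and at 10380 and 12236 cpm in PLA_A. MS_E replicate 1 was again the lowest library. The order of the group means was the same as for the 3p arm, from PLA_A (11308 ± 1312 cpm, SD, n = 2) through MS_A (10556 ± 2550), CIA_B (9467 ± 3434) and PLA_E (9071 ± 1823) to MS_E (5893 ± 3383). The means spanned 0.94 on the log2 scale and the MS_E libraries differed by 1.24, and neighbours in the order overlap. With library size only MS_E was still the lowest, but PLA_E (10540 cpm) came above MS_A (9251 cpm).

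miR-221-3p was at 20.8 and 47.4 cpm in CIA_B. At 1 h its levels were 85.2 and 34.4 cpm for MS_E and 53.9 and 41.7 cpm for PLA_E. At 34 days they were 81.4 and 24.3 cpm for MS_A and 48.6 and 50.5 cpm for PLA_A. With TMM scaling both stimulated groups held 1 library above and 1 below all 4 placebo libraries. With library size only PLA_E replicate 1 was the highest library (76.2 cpm), above MS_E replicate 1 (61.8 cpm) and MS_A replicate 1 (54.9 cpm). MS_E replicate 2 (42.8 cpm) then lay above PLA_E replicate 2 (40.5 cpm), and MS_A replicate 2 (28.2 cpm) was still below all 4 placebo libraries. The means ran from MS_E (59.8 ± 35.97 cpm, SD, n = 2) through MS_A (52.8 ± 40.4), PLA_A (49.5 ± 1.36) and PLA_E (47.8 ± 8.64) to CIA_B (34.1 ± 18.8), with overlapping neighbours and a log2 span of 0.81 against a median gap of 1.17 within a group. The low value of CIA_B rests on replicate 1, where 24 reads were counted. With library size only PLA_E had the highest mean (58.4 cpm) and CIA_B still the lowest.

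miR-222-3p, which shares the seed, was at 9.52 and 22.6 cpm in CIA_B. At 1 h its levels were 33.7 and 22.2 cpm for MS_E and 26.7 and 11.0 cpm for PLA_E. At 34 days they were 26.6 and 17.6 cpm for MS_A and 26.2 and 20.4 cpm for PLA_A. As for miR-221-3p, with TMM scaling MS_E replicate 1 was the highest library and CIA_B replicate 1 (11 reads) the lowest. With library size only PLA_E replicate 1 was the highest (37.7 cpm, against 24.4 cpm in MS_E replicate 1) and CIA_B replicate 1 still the lowest. The means ordered as MS_E (27.9 ± 8.12 cpm, SD, n = 2), PLA_A (23.3 ± 4.06), MS_A (22.1 ± 6.38), PLA_E (18.9 ± 11.1) and CIA_B (16.1 ± 9.28), all with overlapping neighbours. With library size only the mean of PLA_A (27.0 cpm) came above that of MS_E (26.0 cpm), and CIA_B was still the lowest.

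The 5p arms of the pair were near the limit of detection. miR-221-5p had 3 to 52 reads a library and lay between 1.34 and 4.03 cpm in 9 libraries and at 8.03 cpm in MS_E replicate 1. miR-222-5p had 12 reads in all, 0 in 4 libraries and at most 4, and was not tested. miR-126b had no read in any of the 10 libraries, while 465635 reads fell on its antisense partner miR-126a-5p. Over all 53057346 miRNA reads, a count of 0 allows up to 0.0565 reads of miR-126b per 1000000, a limit that covers counting error only.

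**Figure D1:**
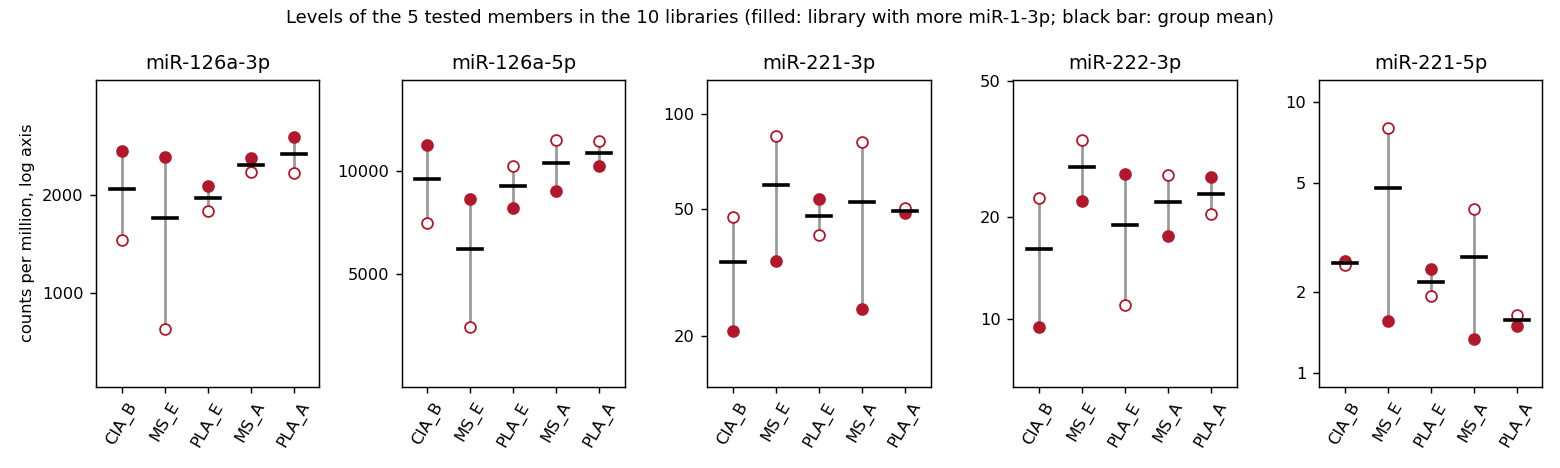
Level of each tested member in cpm (log axis) by group. Each circle is a library, a grey line joins the 2 libraries of a group, the black bar is their mean, and filled circles are the libraries with more miR-1-3p. With TMM scaling MS_E has the lowest mean and the widest gap of both miR-126a arms (CIA_B has the lowest mean of the 3p arm with library size only), whereas miR-221-3p and miR-222-3p have their lowest mean in CIA_B.

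The first question of the design is whether therapy of either kind changed these miRNAs in the tissue. A miRNA is said to pass where it meets the criteria that the study applied, namely p under 0.05 before adjustment and over 2-fold change. None of the 5 tested members passed in any comparison, 0 of 5 in each. For 1 h of stimulation against CIA_B the background was 6.41% of the 359 miRNAs past the thresholds, and for 1 h of placebo it was 0.557%. For 34 days of stimulation it was 1.11% and for 34 days of placebo 7.24%. For all 8 libraries after therapy together it was 4.46%. Of the 50 values of 5 members in 10 comparisons, 0 had an unadjusted p under 0.05 with edgeR, and the same held with limma-voom and with DESeq2. The smallest p was 0.152 and the smallest p after Benjamini-Hochberg adjustment over the 359 miRNAs was 0.801 (edgeR quasi-likelihood test).

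At 1 h of stimulation miR-126a had values below 0 and the pair above 0, except that miR-126a-3p came to 0.08 when libraries were scaled by size only. Against CIA_B the log2 fold change of miR-126a-3p was -0.30 ± 0.58 (SE; 95% interval -1.61 to 1.01) and that of miR-126a-5p -0.68 ± 0.52 (-1.86 to 0.50). The seed pair had 0.79 ± 0.69 (-0.78 to 2.36) for miR-221-3p and 0.76 ± 0.61 (-0.63 to 2.15) for miR-222-3p, and miR-221-5p had 0.91 ± 0.87. Every interval includes 0, and in no member were both MS_E libraries on one side of both CIA_B libraries (31.5% of all miRNAs tested were).

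These values rest on which libraries are used. Without MS_E replicate 1 the log2 fold change of miR-126a-3p turned to 0.29, that of miR-221-3p to -0.10 and that of miR-221-5p to -0.77, and no member passed. Without MS_E replicate 2, both miR-126a arms passed the thresholds, with -1.44 for each (adjusted p = 0.474 for the 3p and 0.487 for the 5p arm, edgeR), in a fit where 9.14% of all 350 miRNAs then tested passed. Without CIA_B replicate 1 the values were 0.13 for miR-126a-3p, -0.34 for miR-126a-5p, 0.32 for miR-221-3p and 0.26 for miR-222-3p, and without CIA_B replicate 2 they were -0.69, -1.02, 1.52 and 1.55 in the same order.

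MS_E replicate 1 also had the lowest sum of the 4 skeletal muscle markers (83910 cpm against 91579 to 268531 in the other 9 libraries) and the highest sum of the 3 erythrocyte markers (miR-451-5p, miR-144-3p and miR-144-5p, 88.6 cpm against 17.4 to 67.5). Its sum of 4 smooth muscle and pericyte markers (both arms of miR-143 and miR-145) was 78028 cpm, within the 27019 to 101582 cpm of the others, and so was its sum of 3 fibroblast markers (miR-199a-3p, miR-199a-5p and miR-214-3p, 2339 cpm within 1418 to 3495). Its 4 leukocyte markers (both arms of miR-142, miR-150-5p and miR-223-3p) summed to 587 cpm, near the low end of 585 to 12756. No tested marker of these 5 lists was at 0 counts in any library. Their part in the low miR-126a of this library was not tested.

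One hour after placebo both miR-126a arms had log2 fold changes near 0 against CIA_B, -0.09 ± 0.58 (SE) for miR-126a-3p and -0.06 ± 0.52 for miR-126a-5p. With library size only they were 0.39 and 0.35, where the median of all miRNAs moved by 0.37. The intervals still reach from -1.40 to 1.22 and from -1.24 to 1.12. The seed pair was above 0 here as in MS_E, with 0.47 ± 0.70 for miR-221-3p and 0.20 ± 0.62 for miR-222-3p, and miR-221-5p had -0.21 ± 0.90. With each library left out in turn the values ranged from -0.48 to 0.36 (miR-126a-3p), -0.39 to 0.29 (miR-126a-5p), -0.05 to 1.20 (miR-221-3p), -0.57 to 0.99 (miR-222-3p) and -0.38 to -0.07 (miR-221-5p), lowest for the miR-126a arms and highest for the seed pair without CIA_B replicate 2. With TMM scaling the groups did not overlap in 1 of 5 members, beside 21.2% of all miRNAs. This was miR-221-5p, which was lower in PLA_E (1.93 and 2.41 cpm) than in CIA_B (2.50 and 2.60 cpm, the latter from 3 reads). With library size only its groups overlapped (3.41 and 1.88 cpm against 1.98 and 2.66 cpm) and its log2 fold change was 0.16.

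At 34 days all 5 members had positive values in MS_A against CIA_B with TMM scaling, from 0.04 ± 0.89 (miR-221-5p, -0.16 with library size only) to 0.61 ± 0.70 (miR-221-3p), beside a median of 0.11 over all miRNAs. With 1 library left out the sign turned in each of them: miR-126a-3p ranged from -0.14 (without CIA_B replicate 2) to 0.68 and miR-126a-5p from -0.17 (without the same library) to 0.48. miR-221-3p ranged from -0.50 (without MS_A replicate 1) to 1.34 (without CIA_B replicate 2), miR-222-3p from -0.14 (without CIA_B replicate 1) to 1.21, and miR-221-5p from -0.89 (without MS_A replicate 1) to 0.58 (without MS_A replicate 2). The groups overlapped in each of the 5, whereas 27% of all miRNAs did not overlap. In PLA_A, miR-126a-3p had 0.36 ± 0.58, miR-126a-5p 0.26 ± 0.52 and miR-222-3p 0.50 ± 0.62. In this comparison 2 of 5 members did not overlap with TMM scaling, beside 36.5% of all miRNAs. They were miR-221-3p, higher in PLA_A with 0.52 ± 0.70, and miR-221-5p, lower with -0.68 ± 0.92. With library size only the groups overlapped in miR-221-3p (63.9 and 48.4 cpm in PLA_A against 15.9 and 50.4 cpm in CIA_B). The values of miR-221-3p and miR-222-3p were -0.02 and -0.06 without CIA_B replicate 1 and 1.25 and 1.29 without CIA_B replicate 2, while those of the miR-126a arms were 0.79 (3p) and 0.61 (5p) without the former and -0.03 and -0.07 without the latter.

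With all 8 libraries after therapy pooled against CIA_B, the miR-126a arms had 0.05 ± 0.46 (3p; 95% interval -0.98 to 1.09) and -0.08 ± 0.41 (5p; -1.02 to 0.85), with 0.49 and 0.26 without CIA_B replicate 1 and -0.33 and -0.41 without CIA_B replicate 2. The seed pair was higher in the mean after therapy, by 0.60 ± 0.55 for miR-221-3p (-0.65 to 1.85) and 0.47 ± 0.49 for miR-222-3p (-0.64 to 1.58), within the spread between libraries. They came to 0.07 and -0.06 without CIA_B replicate 1 (24 and 11 reads) and to 1.33 and 1.26 without CIA_B replicate 2. miR-221-5p had 0.02 ± 0.73, with -0.43 to 0.20 as single libraries were left out. All 5 members overlapped, where 3.9% of all miRNAs did not.

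The second question is whether needle stimulation differed from placebo at the same time. At 1 h, MS_E against PLA_E, miR-126a-5p had a log2 fold change of -0.62 ± 0.52 and miR-126a-3p -0.21 ± 0.58. miR-221-3p had 0.32 ± 0.69 (-0.16 with library size only) and miR-222-3p 0.56 ± 0.61. The largest value of any member and comparison was miR-221-5p with 1.12 ± 0.83 (95% interval -0.76 to 3.01, adjusted p = 0.832, edgeR). That value comes from the 52 reads of MS_E replicate 1, and without this library it was -0.55. Past the thresholds were 0 of 5 members and 3.9% of all miRNAs, and 28.1% of all miRNAs did not overlap, against 0 of 5. Without MS_E replicate 2, miR-126a-3p (-1.35), miR-126a-5p (-1.38) and miR-221-5p (1.86) passed, beside 10.6% of all miRNAs in the same fit. Without MS_E replicate 1 these arms of miR-126a came to 0.35 and -0.19. miR-221-3p ranged from -0.55 to 0.83 (without MS_E replicate 1 and 2) and miR-222-3p from 0.08 to 1.34 (without PLA_E replicate 2 and 1).

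At 34 days, MS_A against PLA_A, the 4 more abundant members had values near 0 with TMM scaling. The log2 fold changes were -0.11 ± 0.58 for miR-126a-3p, -0.10 ± 0.52 for miR-126a-5p, 0.09 ± 0.69 for miR-221-3p and -0.08 ± 0.61 for miR-222-3p. The scarce miR-221-5p had 0.73 ± 0.88 (95% interval -1.25 to 2.71). With library size only miR-221-3p came to -0.43, where the median of all miRNAs moved by -0.32. Without MS_A replicate 1 miR-221-3p came to -0.98 and miR-221-5p to -0.18, and without MS_A replicate 2 to 0.62 and 1.25. The other 3 members ranged from -0.27 to 0.09 (miR-126a-3p), -0.33 to 0.10 (miR-126a-5p) and -0.35 to 0.11 (miR-222-3p). Past the thresholds were 0 of 5 members and 1.95% of all miRNAs, and 0 of 5 and 20.1% did not overlap. The intervals of the 4 more abundant members reach from -1.47 to 1.65, so changes of 2-fold in either direction were not detectable as differences with 2 libraries a group.

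Over both times, MS against PLA, miR-126a-5p had -0.36 ± 0.37 and miR-126a-3p -0.16 ± 0.41, while miR-221-3p had 0.21 ± 0.49 and miR-222-3p 0.24 ± 0.43 (-0.30 and -0.20 with library size only). Past the thresholds were 0 of 5 members (3.9% of all miRNAs), and each member overlapped (0.557% of all miRNAs did not). miR-221-5p had 0.92 ± 0.61 (adjusted p = 0.850, edgeR), which came to 1.29, past the thresholds, without MS_E replicate 2 (7.14% of all miRNAs passed in the same fit) and to 0.07 without MS_E replicate 1. miR-126a-3p ranged from -0.72 to 0.13 and miR-126a-5p from -0.73 to -0.16, lowest without MS_E replicate 2 and highest without MS_E replicate 1. miR-221-3p ranged from -0.31 to 0.49 (without MS_A replicate 1 and 2) and miR-222-3p from 0.00 to 0.63 (without PLA_E replicate 2 and 1).

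Between 1 h and 34 days, with both arms together, the miR-126a arms had the smallest p-values of the 5 members. miR-126a-5p was higher at 34 days by 0.58 ± 0.37 (95% interval -0.25 to 1.41, adjusted p = 0.801, edgeR) and miR-126a-3p by 0.50 ± 0.41 (-0.43 to 1.42, adjusted p = 0.861). The seed pair had -0.07 ± 0.49 and -0.02 ± 0.43, and miR-221-5p had the largest value of the 5, -0.67 ± 0.61 (95% interval -2.04 to 0.70). Past the thresholds were 0 of 5 members (5.29% of all miRNAs) and 0 of 5 did not overlap (1.95%). Without MS_E replicate 2, miR-126a-3p passed with 1.07 (adjusted p = 0.432, edgeR), beside 7.43% of all miRNAs in the same fit, and without MS_E replicate 1 it was at 0.19. Over the libraries left out, miR-126a-5p ranged from 0.35 to 0.96 (without MS_E replicate 1 and 2), miR-221-3p from -0.64 to 0.33 (without MS_A and MS_E replicate 1), miR-222-3p from -0.32 to 0.37 (without PLA_E replicate 2 and 1) and miR-221-5p from -1.17 to 0.13 (without MS_A and MS_E replicate 1).

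The interaction asks whether the change from 1 h to 34 days differed between stimulation and placebo. It was 0.10 ± 0.82 for miR-126a-3p and 0.52 ± 0.74 for miR-126a-5p, and -0.23 ± 0.97 and -0.64 ± 0.86 for miR-221-3p and miR-222-3p, on the log2 scale, and -0.40 ± 1.21 for miR-221-5p. The miR-126a arms came to -0.45 (3p) and 0.07 (5p) without MS_E replicate 1 and to 1.26 and 1.29 without MS_E replicate 2. miR-221-3p ranged from -1.35 to 0.60 and miR-221-5p from -1.36 to 1.24 (without MS_A and MS_E replicate 1), and miR-222-3p from -1.41 to -0.17 (without PLA_E replicate 1 and 2). Past the thresholds were 0 of 5 members and 3.34% of all miRNAs.

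Of the 50 intervals, 43 reach a 2-fold rise, 32 reach a 2-fold fall, and 1, that of miR-222-3p between 1 h and 34 days, lies within 2-fold in both directions. The p-values thus do not show that the members stayed the same.

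**Figure D2:**
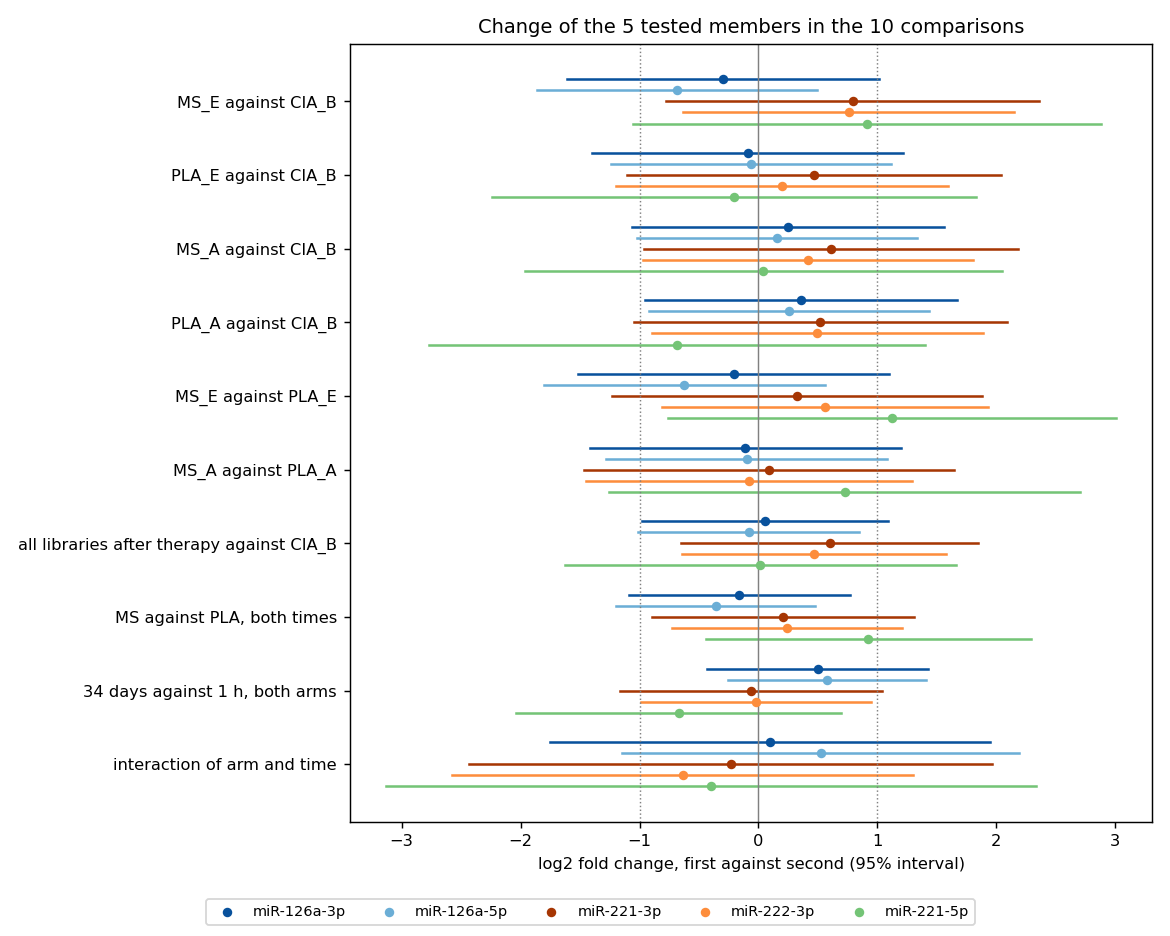
Log2 fold change of each tested member with its 95% interval (edgeR quasi-likelihood fit over 10 libraries) in the 10 comparisons, first group against second. Dotted lines mark 2-fold, and every interval crosses 0.

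Ratios within a library do not depend on the scaling of the libraries. From the miR-126a hairpin the 5p arm gave more reads than the 3p arm in all 10 libraries, 75.9% (MS_E replicate 2; exact 95% binomial interval 75.6 to 76.2) to 85.3% (PLA_E replicate 2; 84.9 to 85.6) of the reads of both arms, where intervals cover counting error only. Of the 101 hairpins with both arms tested, 55 gave more reads from the 5p arm over all libraries. The 5p to 3p ratio was 4.35 and 4.84 in CIA_B. It was 4.53 and 3.15 for MS_E and 3.64 and 5.78 for PLA_E, and at 34 days 5.24 and 3.35 for MS_A and 3.43 and 5.24 for PLA_A. The group means lay between 3.84 (MS_E) and 4.71 (PLA_E), a range smaller than the gap between the 2 libraries of each group except CIA_B.

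The 3p to 5p balance of the pair was the opposite. miR-221 gave 88.9% (CIA_B replicate 1, 24 of 27 reads; exact 95% interval 70.8 to 97.6) to 97.0% of its reads from the 3p arm, the arm that holds the shared seed. miR-222 gave 1237 reads from the 3p arm and 12 from the 5p arm over all libraries.

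miR-221-3p exceeded miR-222-3p in all 10 libraries, 2.18-fold and 2.09-fold in CIA_B. The ratio was 2.53 and 1.55 for MS_E and 2.02 and 3.78 for PLA_E, and at 34 days 3.06 and 1.38 for MS_A and 1.86 and 2.47 for PLA_A. The ratio varied 2.73-fold between libraries although both hairpins lie in 1 cluster. With TMM scaling the summed seed pair ranged from 30.3 cpm (CIA_B replicate 1) to 119 cpm (MS_E replicate 1). miR-126a-3p exceeded this sum 6.51-fold in MS_E replicate 1 and 90.2-fold in CIA_B replicate 1, the extremes of the 10 libraries. The other CIA_B library lay at 20.8.

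In 9 exact two-sided permutation tests (3 log2 ratios in 3 pooled comparisons) the smallest p was 0.457, for miR-126a-3p to the summed pair at 34 days against 1 h (a difference of 0.68, n = 4 and 4), with an adjusted p of 0.943 over the 9. The arms of miR-126a (3p to 5p) differed by 0.13 after against before therapy (n = 8 and 2, exact permutation p = 0.622), by 0.15 between MS and PLA (n = 4 and 4, exact permutation p = 0.514) and by -0.02 between 34 days and 1 h (exact permutation p = 0.971). miR-221-3p to miR-222-3p differed by 0.07, -0.27 and -0.15 in the same order (exact permutation p = 0.889, 0.514 and 0.629). For miR-126a-3p to the pair the differences were -0.57 after against before therapy (exact permutation p = 0.578) and -0.39 between MS and PLA (exact permutation p = 0.743). The smallest p such tests allow is 0.0444 for 8 against 2 and 0.0286 for 4 against 4 libraries.

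Within groups the ratio of the miR-126a arms went with the level of miR-1-3p. In all 5 groups the 5p to 3p ratio was lower in the library with more miR-1-3p, and over the 10 libraries the ranges were 3.15 to 4.35 and 4.53 to 5.78 and did not overlap. The ratio was lower in that library in all 5 groups for 15 of 101 hairpins (14.9%), and for 9 of them (8.91%) the ranges over the 10 libraries did not overlap either. In either direction 35.6% moved the same way in all 5 groups and 22.8% had ranges that did not overlap, so the pattern is not particular to miR-126a. miR-126a-3p itself was higher in the library with more miR-1-3p in 5 of 5 groups, as were 17.5% of all miRNAs tested, whereas miR-126a-5p was higher there in 2 of 5. No member was lower there in all 5 groups, as 13.9% of all miRNAs were, and miR-221-3p was lower in 4 of 5 and miR-222-3p in 3 of 5. As the libraries were sorted by a measured miRNA, these are descriptions without a test.

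**Figure D3:**
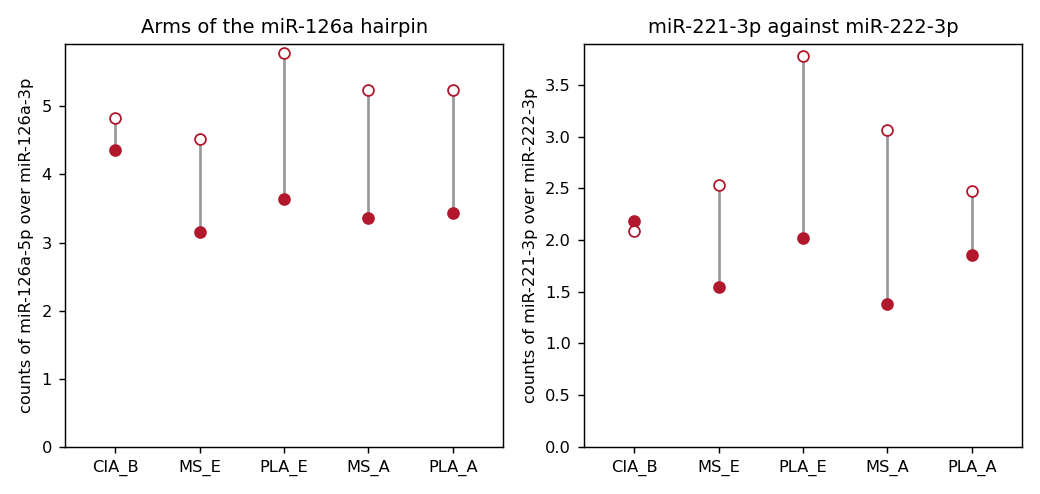
Read count of miR-126a-5p over miR-126a-3p (left) and of miR-221-3p over miR-222-3p (right) in each library, by group. A grey line joins the 2 libraries of a group and filled circles are those with more miR-1-3p. In the left panel every filled circle lies below every open one.

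Other miRNAs known to act in endothelium or vessel growth were set beside the members. Of the 25 listed, 22 were tested. At 1 h of stimulation against CIA_B, 3 of 22 passed the thresholds, all higher, beside 6.41% of all miRNAs, and all 3 belong to the miR-17-92 family of clusters, which promotes growth and is active in vessels. The other 3 members of that family in the list did not pass, with 1.00 ± 0.64 for miR-17-5p, 1.04 ± 0.83 for miR-18a-5p and 0.69 ± 0.56 for miR-92a-3p. miR-19a-3p had a log2 fold change of 3.08 ± 0.87 (SE; adjusted p = 0.373, edgeR), with 1.62 cpm or less in both CIA_B libraries and 16.5 and 7.18 cpm in MS_E. miR-20a-5p had 1.91 ± 0.52 (8.66 and 11.2 against 40.1 and 35.6 cpm) and miR-19b-3p 1.39 ± 0.58 (21.6 and 49.0 against 102 and 85.7 cpm). miR-19a-3p and miR-20a-5p passed without any 1 of the 4 libraries, and miR-19b-3p only without CIA_B replicate 2. CIA_B replicate 1 holds 1 read of miR-19a-3p and 10 of miR-20a-5p. Blood cell markers were higher in the mean in the same comparison. Of the 4 leukocyte markers, all above 0 with a median of 1.31, 1 passed (miR-223-3p, 1.77 ± 0.56). It was at 10.4 and 28.1 cpm in CIA_B and at 64.7 and 70.1 cpm in MS_E. Of the 3 erythrocyte markers, all above 0 with a median of 1.02, 1 passed (miR-451-5p, 1.62 ± 0.68). It was at 19.9 and 12.9 cpm in CIA_B and at 79.8 and 19.8 cpm in MS_E. Thus only MS_E replicate 1 lay above both CIA_B libraries in miR-451-5p. Of the muscle, smooth muscle and fibroblast markers none passed here or in any of the other 9 comparisons with edgeR. The part of blood cells in the values of the vascular list was not tested.

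Past the thresholds at 34 days were 0 of 22 in MS_A and 2 of 22 in PLA_A (miR-19a-3p with 2.22 ± 0.88 and miR-20a-5p with 1.48 ± 0.53), beside 1.11% and 7.24% of all miRNAs, and both placebo calls were lost without either CIA_B library or PLA_A replicate 1 (miR-19a-3p also without PLA_A replicate 2). In PLA_A against CIA_B 3 of 4 leukocyte markers passed, all higher (miR-142-3p with 6.13 ± 1.31, miR-142-5p with 4.36 ± 0.86 and miR-150-5p with 2.88 ± 1.12), and 2 of 3 erythrocyte markers (miR-144-3p with 3.11 ± 1.33 and miR-144-5p with 1.60 ± 0.62). The leukocyte markers summed to 12756 cpm in PLA_A replicate 1, against 1154 cpm in its partner and at most 1788 cpm in the other 8 libraries. In MS_A 1 of 4 leukocyte markers passed (miR-223-3p, 1.46 ± 0.56), with a median of 1.28 over the leukocyte and 1.26 over the erythrocyte markers. After 1 h of placebo 0 of 22 passed, and 0 of the 7 blood cell markers, with medians of 0.97 and 0.31 in the same order. All 7 were above 0 against CIA_B in PLA_E, MS_A and PLA_A, as in MS_E. Over all libraries after therapy 3 of 22 passed, all higher (miR-19a-3p, miR-20a-5p and miR-34a-5p, an inhibitor of SIRT1 that rises in ageing endothelium, with 1.56 ± 0.61), and none of these 3 passed without either CIA_B library. Calls were also lost for miR-19a-3p without MS_E replicate 1, MS_A replicate 2 or PLA_A replicate 2, and for miR-34a-5p without MS_E replicate 1, MS_A replicate 1, PLA_E replicate 2 or PLA_A replicate 2. The leukocyte markers miR-142-3p (3.14 ± 1.08) and miR-223-3p (1.35 ± 0.45) passed here too, with a median of 1.56 over the 4 leukocyte and 1.04 over the 3 erythrocyte markers. In MS_E against PLA_E 2 of 22 passed, miR-19a-3p (2.00 ± 0.77) and miR-19b-3p (1.34 ± 0.57), and neither did without MS_E replicate 1 or PLA_E replicate 2 (miR-19b-3p also not without MS_E replicate 2), while 0 of the 7 blood cell markers passed.

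Past the thresholds between MS and PLA over both times was 1 of 22, miR-10b-5p (1.70 ± 0.70), which passed only without MS_E replicate 2, MS_A replicate 2 or PLA_E replicate 2 and came to 0.85 without MS_E replicate 1 and 0.82 without MS_A replicate 1. In MS_A against PLA_A and in 34 days against 1 h the count was 0 of 22, and in the interaction it was 2 of 22, miR-19a-3p and miR-19b-3p, both lower. With 1 library left out, miR-19a-3p still passed without MS_E replicate 2, PLA_A replicate 1 or PLA_E replicate 1, and miR-19b-3p without PLA_E replicate 1, and neither passed without any other library. Of the leukocyte markers miR-142-5p also passed in the interaction (-3.59 ± 1.21), and both arms of miR-142 were lower in MS than in PLA over both times (-2.45 ± 0.87 for the 3p and -1.92 ± 0.60 for the 5p arm). They passed in MS_A against PLA_A as well (-4.28 ± 1.23 and -3.71 ± 0.85), and at 34 days against 1 h miR-142-5p (1.59 ± 0.60) and the erythrocyte miR-144-5p (1.15 ± 0.41) passed. PLA_A replicate 1 alone held 636 cpm of miR-142-3p and 5855 cpm of miR-142-5p, against at most 49.7 and 551 cpm in the other 9 libraries. After adjustment over all miRNAs 0 of 22 passed in any comparison with edgeR. The median log2 fold change of the 22 was 0.16 at 1 h of stimulation against CIA_B, beside 0.06 over all miRNAs, and between -0.06 and 0.14 in the other comparisons. As comparisons with CIA_B share its 2 libraries, their values are not independent.

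**Figure D4:**
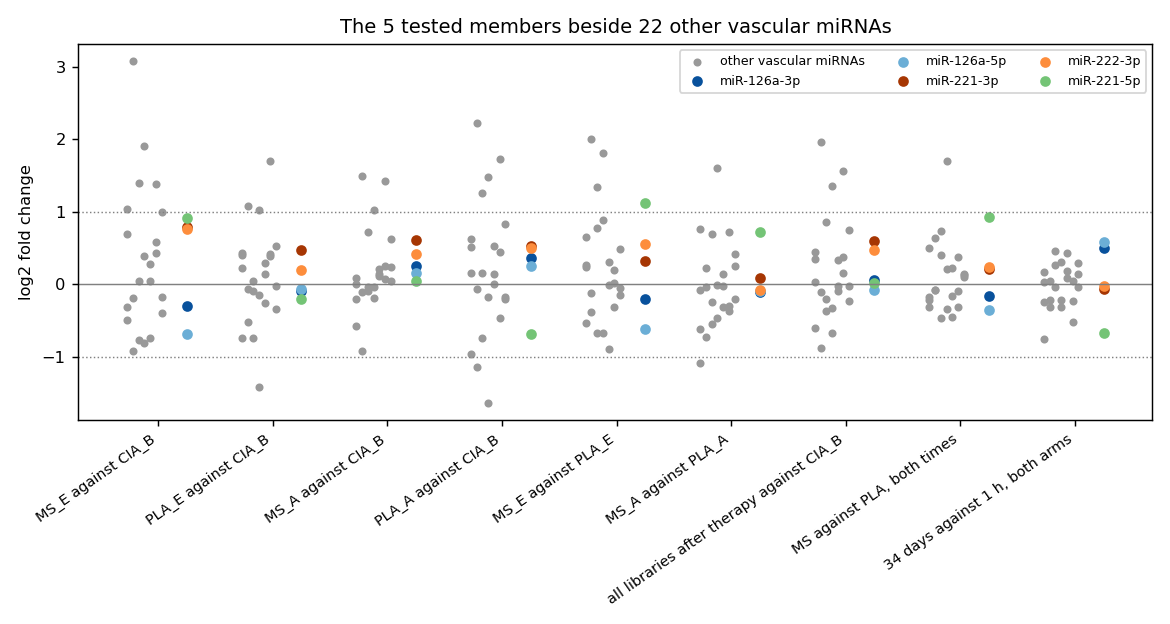
Log2 fold change (edgeR) of the 5 tested members (coloured) and of 22 other vascular miRNAs (grey) in 9 comparisons, with dotted lines at 2-fold. The members lie within 1.12 of 0, while miR-19a-3p reaches 3.08 at 1 h of stimulation against CIA_B.

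The miRNAs most like each member were taken by the Pearson correlation of log2 cpm over the 10 libraries, among 178 tested miRNAs with a mean of at least 100 counts. These are descriptions, since the points share libraries and scaling. miR-126a-3p was most like miR-26b-5p (r = 0.95, Spearman's rho = 0.76, and r = 0.71 without MS_E replicate 1 and CIA_B replicate 2), followed by miR-190a-5p (r = 0.90) and miR-22-5p (r = 0.88), which fell to 0.22 and 0.38 without these libraries. miR-126a-5p was most like miR-27a-3p (r = 0.92, 0.81 without the same 2 libraries), the muscle miRNA miR-133a-5p (r = 0.87, then 0.75) and miR-378a-5p (r = 0.87, then 0.51). The 2 arms of miR-126a had r = 0.85 and rho = 0.56, and r = 0.06 without these 2 libraries, so their likeness rests on those.

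miR-221-3p was most like miR-199a-5p, a miRNA of fibroblasts (r = 0.89, 0.84 without CIA_B replicate 1 and MS_A replicate 2), followed by miR-34c-5p (r = 0.80) and miR-21-5p (r = 0.79), which came to 0.69 and 0.43 without these libraries. miR-222-3p was most like the epithelial miR-205 (r = 0.93, 0.77 without CIA_B replicate 1 and PLA_E replicate 2), followed by miR-19b-3p (r = 0.89) and the myeloid miR-223-3p (r = 0.82), which fell to 0.55 and 0.26 without these. The scarce miR-221-5p was most like miR-146b-5p (r = 0.91), miR-183-5p (r = 0.87) and miR-374-5p (r = 0.86), and without MS_E replicate 1 and MS_A replicate 1 these were 0.45, 0.80 and 0.25, so the first and the last rest on those libraries. miR-221-3p and miR-222-3p had r = 0.76 and rho = 0.87 with each other, and r = 0.61 without CIA_B replicate 1 and MS_A replicate 2. miR-126a-3p against miR-221-3p had r = -0.56, and -0.32 without MS_E replicate 1 and CIA_B replicate 2.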

How the data were processed

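Small RNA was sequenced in 10 rat libraries. Per the study's methods and the labels, the authors used the TruSeq small RNA kit and a HiSeq instrument, ran CASAVA 1.8, trimmed adapters, dropped reads under 18 bases, aligned with Bowtie to rn4 and to miRBase, and counted with miRDeep2. The values are the whole read counts per miRNA that the authors deposited, without normalization. A table of the series with 20 value columns whose names match no library was not used.

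The largest count over precursors was taken for each of 723 miRNAs (35 have several). The quasi-likelihood test of edgeR 4.0.16 (R 4.3.3) with TMM scaling was run on 359 miRNAs (1 cpm or more in 5 or more libraries), with all 10 libraries in 1 fit with a mean for each group, a prior count of 2 and Benjamini-Hochberg adjustment over the 359. The study used limma-voom, which is an alternative here (limma 3.58.1), as is DESeq2 1.42.0. Log2 ratios within a library (pseudocount 0.5 counts) were compared by exact permutation tests in Python 3.11.15 with scipy 1.17.1. For 2 against 2 libraries such a test cannot go below 0.333, so it was not used for single groups. The edgeR fit was run on simulated counts with known fold changes as a check of the code. The simulation set the same fixed spread for all miRNAs and no other differences in composition between libraries. It therefore does not show how the fit performs on these libraries.

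The members, the marker lists and the list of vascular miRNAs were chosen with earlier results of these data known. All rows with the 3 name stems are reported, and for each tested member the 3 most correlated miRNAs with a mean of at least 100 counts. miR-486 of the erythrocyte and miR-155-5p of the leukocyte list were not analysed here. The labels do not state that the libraries of a group are separate animals, so p-values measure the spread between these libraries, which may be technical. The 2 libraries of each group are not duplicates, with a chi-square of 1471 to 8619 per degree of freedom between their counts. Per the labels, samples were stored frozen and extracted in 1 batch. Sequences are from the RefSeq table of GRCr8, and they were not compared with those the authors counted against. A genome of build rn4 was not used here.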

Additional observations from a re-analysis of the deposited data

How the results depend on the processing

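The alternatives were limma-voom, DESeq2, edgeR with the size factors of DESeq2 or with library size alone, all miRNAs without a filter, a fit restricted to the libraries compared, a replicate block, a term for the 2 library types (more or less miR-1-3p), and each library left out in turn. Among 395 member values from settings that left out no library of the comparison, 0 passed the thresholds (smallest p 0.0788), and 28 had another sign than in the values reported. With 1 library left out, 7 of 290 values passed, all without MS_E replicate 2 (the lone MS_E library is then assumed to vary like the other groups), and 61 had another sign. The number of members past the thresholds then ranged from 0 to 2 for MS_E against CIA_B, from 0 to 3 for MS_E against PLA_E, and from 0 to 1 for MS against PLA and for 34 days against 1 h, and stayed at 0 in the other 6 comparisons.

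Of the ratios, 0 of 105 alternative values had an exact permutation p under 0.05 and 9 had another sign, all with a library left out. The range with each library left out was -0.18 to 0.12 for miR-126a-3p to miR-126a-5p at 34 days against 1 h. For miR-221-3p to miR-222-3p it was -0.041 to 0.165 after against before therapy and -0.351 to 0.0735 at 34 days against 1 h. For miR-126a-3p to the pair it was -1.62 to 0.48 after against before therapy (0.48 without CIA_B replicate 1) and -0.82 to 0.27 between MS and PLA (0.27 without MS_E replicate 1). The cause was not tested.

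The replicate numbers do not pair the libraries: the deviations of replicate 1 from the group means correlated between groups from -0.54 to 0.59. With the replicate block 0 of 5 members passed in each of the 10 comparisons, and the exact permutation p of the ratios within replicate numbers was 0.333 to 0.960.

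The counts over all miRNAs also moved. In the order MS_E, PLA_E, MS_A and PLA_A against CIA_B, MS_E against PLA_E and MS_A against PLA_A, 23, 2, 4, 26, 14 and 7 miRNAs passed, and 41, 9, 12, 49, 22 and 14 with the term for library type. After against before therapy, MS against PLA, 34 days against 1 h and the interaction gave 16, 14, 19 and 12, against 10, 6, 12 and 4 with limma-voom, which also gave 9 for MS_E against PLA_E and 1 for MS_A against PLA_A. No filter gave 38 for MS_E against CIA_B, 29 for MS_E against PLA_E and 23 for MS against PLA. Only the libraries compared gave 6 for PLA_E and 12 for MS_A against CIA_B, and DESeq2 gave 5 for PLA_E. The block gave 1 for PLA_E against CIA_B, 4 for MS_A against PLA_A, 6 for MS against PLA and 7 for the interaction. Library size only gave 4 for PLA_E, 2 for MS_A, 9 after against before therapy and 7 for the interaction, and moved the median log2 fold change of all miRNAs by up to 0.37 (PLA_E against CIA_B), with another sign for 11 of 50 member values, against 2 with the size factors of DESeq2. With 1 library left out the counts ranged from 16 to 32, 1 to 10, 1 to 7, 9 to 25, 7 to 37 and 2 to 13 in the order above. After against before therapy gave 4 (without CIA_B replicate 1) to 22, MS against PLA 7 to 25, 34 days against 1 h 6 to 28, and the interaction 3 to 17. The 9 of PLA_A against CIA_B came without CIA_B replicate 1 and the 37 of MS_E against PLA_E without MS_E replicate 2. Leaving out each library for the vascular list was added after the data were seen. Depth limits the 5p arms of the pair in all libraries and the 3p arms of the pair in CIA_B replicate 1.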
